A study of Rattus norvegicus with 18 samples.

Results

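The genes described here are 10 genes of osteoclast formation and giant cell fusion in the rat lung: the ligand RANKL (Tnfsf11), its receptor RANK (Tnfrsf11a), its soluble decoy osteoprotegerin (Tnfrsf11b), the transcription factor Nfatc1, the fusion proteins Dcstamp and Ocstamp, the costimulatory receptor Oscar, and the effectors tartrate-resistant acid phosphatase (Acp5), cathepsin K (Ctsk) and the vacuolar ATPase subunit d2 (Atp6v0d2). They were taken by symbol, and each of the 10 matched 1 of the 22081 genes listed in the deposited tables. The RNA came from the lungs of 18 male F344/DuCrlCrlj rats, 3 vehicle control rats (Control) and 3 rats given the multiwalled carbon nanotube MWNT-7 (MWCNT) at each of 3 times, after 0.5, 1 and 2 years of dosing. MWCNT rats received 0.5 mg/kg of MWNT-7, a straight and needle-like fiber, into the trachea every 4 weeks from 9 weeks of age, and Control rats received the saline and Tween 80 vehicle in the same way. No transgene or deletion was involved, each library was made from 1 piece of the accessory lobe free of tumor, and a different rat was used at each time. The times are written as Year 0.5, Year 1 and so on.

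Osteoclasts are the multinucleated cells that dissolve bone. They form from the monocyte and macrophage lineage when RANKL on neighboring cells binds RANK, osteoprotegerin captures RANKL and holds the signal back, and immunoreceptors such as OSCAR add a second calcium signal through adaptor proteins. Both signals raise NFATc1, which drives the genes for cell fusion, for the proton pump that acidifies the space against bone, and for cathepsin K and the acid phosphatase that act in that acid. Macrophages in tissues other than bone also fuse into giant cells around material that they cannot digest, and several of these genes are known in such cells and in the lysosomes of activated macrophages.

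Where RefSeq gives a start site for a member, the 250 bases before it were read from the GRCr8 rat assembly, which is not the build of the deposited tables. Promoter windows were found for 5 of the 10 genes, Acp5, Ctsk, Ocstamp, Oscar and Tnfsf11, and those of 4 genes that were higher in MWCNT rats are shown to let their DNA be read beside the values. Each runs 5′ to 3′ toward the start, with capitals on TTTCC or its reverse complement GGAAA (the core of NFAT sites) and on GAGGAA or its reverse complement TTCCTC (the core of sites of PU.1, the factor encoded by Spi1), which can share letters.
Ctsk (chr2:185747298-185747547, plus strand): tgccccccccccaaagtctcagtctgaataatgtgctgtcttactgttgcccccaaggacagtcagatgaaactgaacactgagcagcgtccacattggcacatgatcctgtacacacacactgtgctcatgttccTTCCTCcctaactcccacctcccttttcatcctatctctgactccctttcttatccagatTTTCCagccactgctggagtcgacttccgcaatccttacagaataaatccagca
Oscar (chr1:74522633-74522882, plus strand): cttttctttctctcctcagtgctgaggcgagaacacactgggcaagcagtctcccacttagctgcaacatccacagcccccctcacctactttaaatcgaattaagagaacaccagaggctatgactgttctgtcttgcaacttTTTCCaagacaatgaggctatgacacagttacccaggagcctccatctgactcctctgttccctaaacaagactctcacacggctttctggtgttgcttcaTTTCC
Ocstamp (chr3:174560908-174561157, minus strand): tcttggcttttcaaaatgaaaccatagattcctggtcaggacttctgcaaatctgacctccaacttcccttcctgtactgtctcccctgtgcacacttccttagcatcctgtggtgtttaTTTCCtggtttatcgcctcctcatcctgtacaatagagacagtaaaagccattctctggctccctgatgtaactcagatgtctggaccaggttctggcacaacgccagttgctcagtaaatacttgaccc
Acp5, downstream start (chr8:28943930-28944179, minus strand): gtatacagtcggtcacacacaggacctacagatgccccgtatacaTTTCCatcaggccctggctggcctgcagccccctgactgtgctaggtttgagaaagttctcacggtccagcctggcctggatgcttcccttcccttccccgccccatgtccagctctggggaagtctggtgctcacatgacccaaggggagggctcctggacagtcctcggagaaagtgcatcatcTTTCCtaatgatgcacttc
The NFAT core stood in each of these 4 windows, beginning 54 bases before the start in Ctsk, 106 and 5 bases before it in Oscar, 130 in Ocstamp, and 205 and 19 in Acp5. That core is short, and 56.9% of the 33469 rat windows of the same length held it. A PU.1 core stood in Ctsk, 114 bases before the start, and in Tnfsf11, 138 bases before it, against 23.3% of all windows. The upstream Acp5 start had neither core, and the Tnfsf11 window had no NFAT core. The NFAT core thus stood in 4 of the 6 windows of the 5 genes, and those 4 are the ones printed. The AP-1 motifs TGACTCA and TGAGTCA, held by 4.05% of all windows, and the E-box CACGTG of the MITF family, held by 5.59%, were in none of the 6 windows of the 5 genes on either strand. A match in these letters is a description and not a binding site.

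MWCNT rats had more RNA of most of these genes at every time, and Ctsk and Atp6v0d2 moved most. Ctsk was 20.5-fold, 22.4-fold and 26.2-fold higher at Years 0.5, 1 and 2, and Atp6v0d2 was 16.5-fold, 15.4-fold and 29.3-fold higher. Acp5 was 3.04-fold, 3.02-fold and 3.17-fold higher, and Oscar 2.505-fold, 2.16-fold and 2.42-fold higher. RANK and the 2 fusion genes were called at some of the times, RANKL was close to absent in both groups, and neither osteoprotegerin nor Nfatc1 was called at any time. Counts were compared with the edgeR quasi-likelihood test, and a gene was called when its false discovery rate (FDR) was under 0.05 and its log2 fold change beyond 1 in size. Of the 10 genes, 9 had enough counts to be tested at each time, and 6 of the 9 were called higher at each time and 0 lower. Among all tested genes 6.07%, 6.13% and 8.17% were called higher at Years 0.5, 1 and 2, and 3.03%, 4.09% and 8.22% lower. DESeq2 called the same number at each time. Acp5, Ctsk, Oscar and Atp6v0d2 were called at all 3 times, as were 4.22% of the genes tested throughout.

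**Figure D1:**
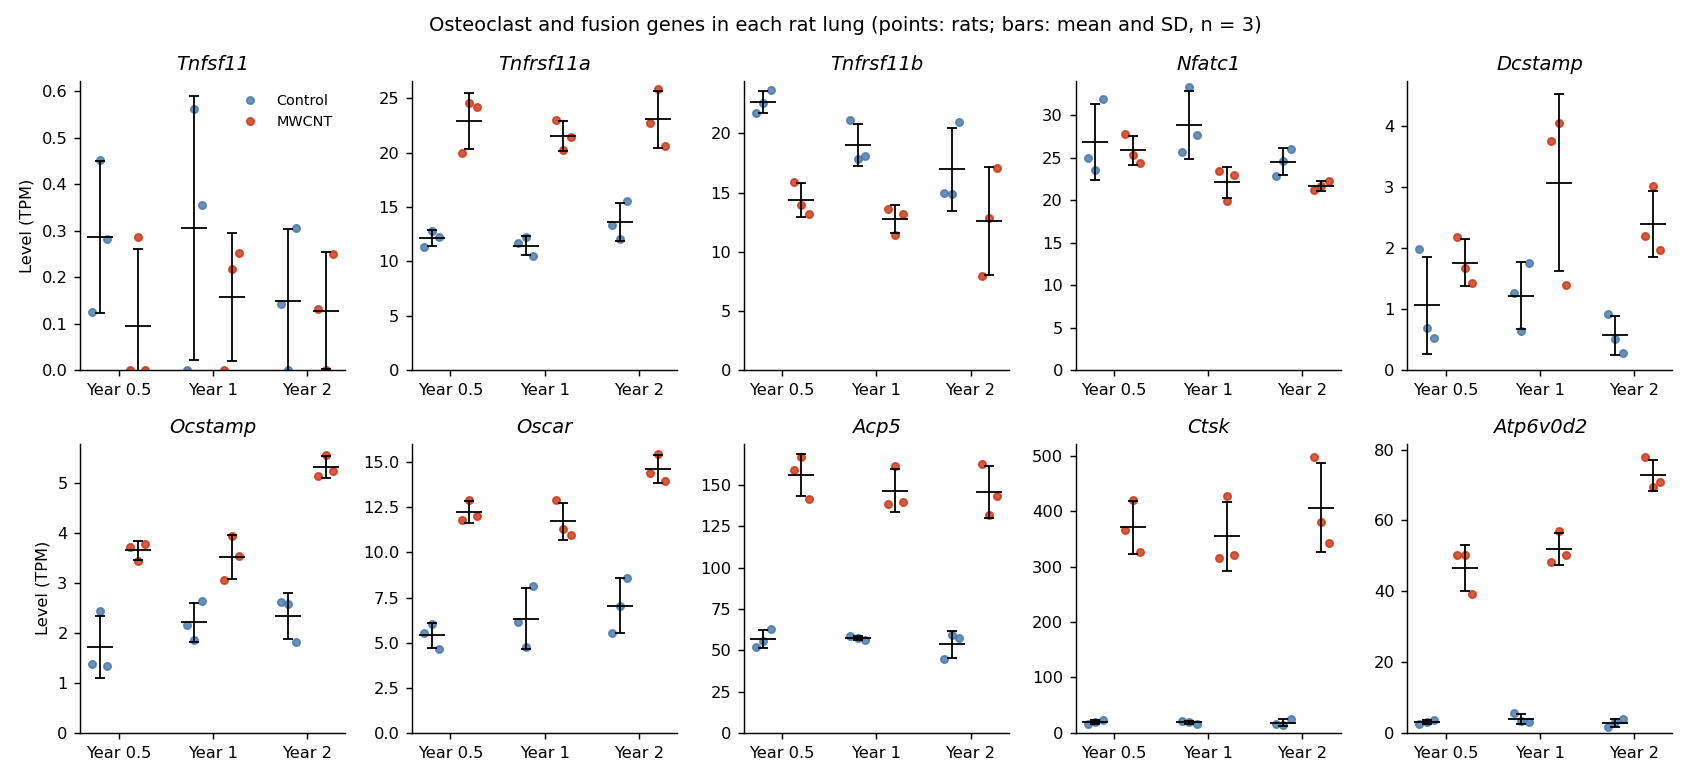
Level of each of the 10 genes in TPM (a transcript measure per gene length, y axis, scaled for each gene) in every rat, Control in blue and MWCNT in red, at each year (x axis), with bars at the mean ± SD of 3 rats. All MWCNT rats lie above all Control rats of their time for Tnfrsf11a, Ocstamp, Oscar, Acp5, Ctsk and Atp6v0d2, while Tnfsf11 stays at or under 0.561 TPM.

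**Figure D2:**
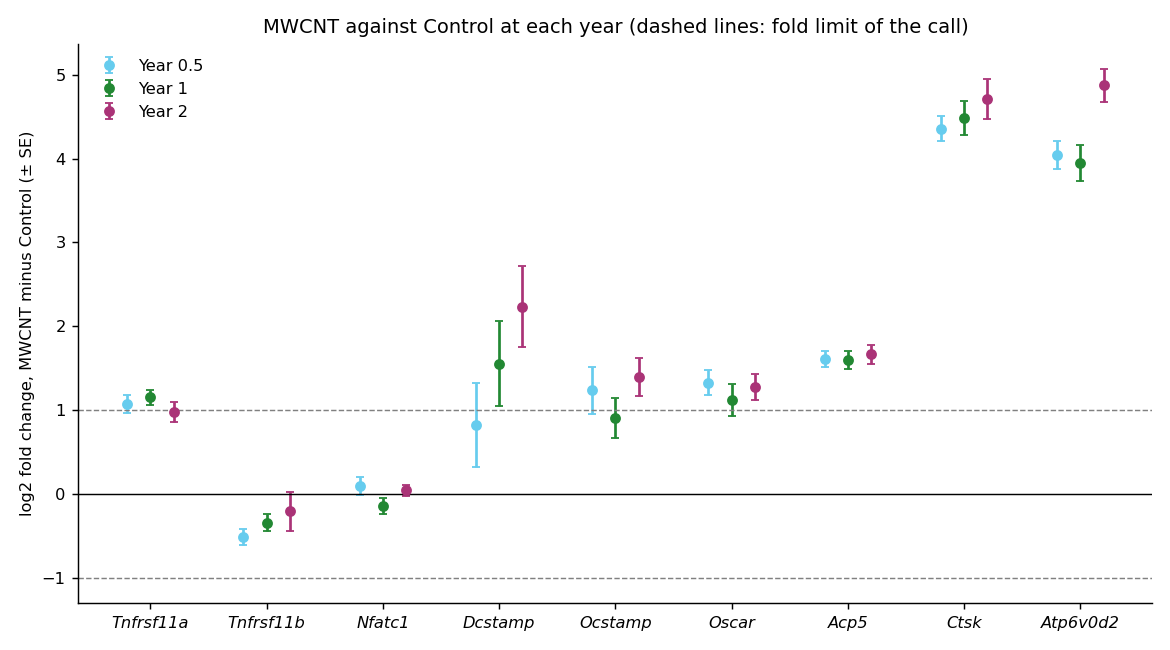
Fitted log2 fold change, MWCNT minus Control, ± SE (y axis) for the 9 genes tested (x axis) at each year (colors), with dashed lines at the fold limit of a call. Ctsk and Atp6v0d2 stand between 3.95 and 4.87, the receptors and Acp5 between 0.97 and 1.66, and Nfatc1 near 0.

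Levels below are given in TPM, which count transcripts per length within 1 rat, in the order of rats 1, 2 and 3 of a group. At Years 0.5, 1 and 2 every MWCNT rat exceeded every Control rat in TPM in 17%, 15% and 18.1% of all tested genes. These shares are to be set beside each such separation below, and the share apart across all times was not counted. In whole lung, more cells of a type and more RNA per cell cannot be told apart.

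The ligand Tnfsf11 (ENSRNOG00000049547, chr15:60482527-60512704, minus strand, in Rnor_6.0) was barely detected. Control rats had 1, 3 and 2 counts at Year 0.5, 0, 4 and 3 at Year 1, and 1, 0 and 2 at Year 2. MWCNT rats had 0, 3 and 0 counts, then 0, 2 and 2, then 1, 0 and 2. The highest count in any rat was 4, and the groups overlapped at every time. Over all times the level was 0.247 ± 0.195 TPM (SD, n = 9) in Control and 0.127 ± 0.127 TPM (SD, n = 9) in MWCNT, a difference that a two-sided exact permutation test within times did not separate (p = 0.155, where the design allows 0.00025 at the smallest). A difference in RANKL was not detectable at this depth.

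The receptor gene Tnfrsf11a (ENSRNOG00000015615, chr13:25778317-25835957, plus strand) was higher in MWCNT. Control rats stood at 11.3, 12.8 and 12.2 TPM at Year 0.5, at 11.7, 12.2 and 10.5 at Year 1, and at 13.3, 12.1 and 15.5 at Year 2. MWCNT rats stood at 19.99, 24.6 and 24.2 TPM, then at 23.0, 20.2 and 21.5, then at 22.8, 25.8 and 20.6. At each time every MWCNT rat exceeded every Control rat, as in 17%, 15% and 18.1% of all tested genes. The log2 fold change was 1.07 ± 0.11 (SE, FDR = 0.000119) at Year 0.5, 1.15 ± 0.09 (FDR = 3.44e-05) at Year 1 and 0.97 ± 0.12 (FDR = 0.000182) at Year 2, the last just short of the fold limit.

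Osteoprotegerin, Tnfrsf11b (ENSRNOG00000008336, chr7:93798545-93826665, minus strand), the decoy that competes with RANK for the ligand, had an FDR under 0.05 and a lower level in MWCNT rats at the first 2 times, by less than the fold limit. Control rats had 21.8, 22.6 and 23.6 TPM at Year 0.5, 21.1, 17.9 and 18.1 at Year 1, and 14.98, 14.9 and 21.0 at Year 2. MWCNT rats had 15.9, 13.9 and 13.2 TPM, then 13.6, 11.4 and 13.2, then 7.98, 12.8 and 17.0. The groups were apart at Year 0.5 and Year 1, as 40.7% and 46.8% of all tested genes were with MWCNT below Control in TPM. They overlapped at Year 2, when the 3 MWCNT rats were widely spread. Its log2 fold change was -0.52 ± 0.09 (SE, FDR = 0.00245) at Year 0.5 and -0.34 ± 0.11 (FDR = 0.0283) at Year 1, both short of the fold limit. By FDR alone, 18.6% and 19.6% of all tested genes were lower at these times. At Year 2 the value was -0.21 ± 0.23 (FDR = 0.481), and without MWCNT rat 1, the lowest, it was 0.02. The summed TPM of endothelial markers and of fibroblast markers lay below Control in MWCNT rats at each time, without overlap. Over 3 endothelial markers (Cdh5, Kdr and Tie1) the sum was between 683 and 995 in Control and between 293 and 529 in MWCNT, with 1, 0 and 2 of the 3 called lower at Years 0.5, 1 and 2. Over 5 fibroblast markers it was between 594 and 1039 in Control and between 456 and 663 in MWCNT, with 0, 0 and 1 called lower (Dcn) and Col1a1 called higher at Year 2. No marker of either list was at 0 in a whole group, and their part in the Tnfrsf11b values was not tested.

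Set against each other within a rat, the decoy exceeded the receptor in all 9 Control rats and was below it in all 9 MWCNT rats. The ratio of Tnfrsf11b to Tnfrsf11a TPM was 1.87 ± 0.09 in Control and 0.636 ± 0.140 in MWCNT at Year 0.5 (SD, n = 3 each), and 1.67 ± 0.18 and 0.591 ± 0.025 at Year 1. At Year 2 it was 1.24 ± 0.11 in Control and 0.558 ± 0.244 in MWCNT. No rat of either group crossed 1, the nearest being 1.12 in Control and 0.826 in MWCNT, both at Year 2. The ratio is a description without a test, 1 is only a reference line, and the share of other gene pairs that separate in this way was not counted. In TPM at Years 0.5, 1 and 2, every MWCNT rat lay below every Control rat in 40.7%, 46.8% and 45.7% of all tested genes. Every MWCNT rat lay above every Control rat in 17%, 15% and 18.1%.

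**Figure D3:**
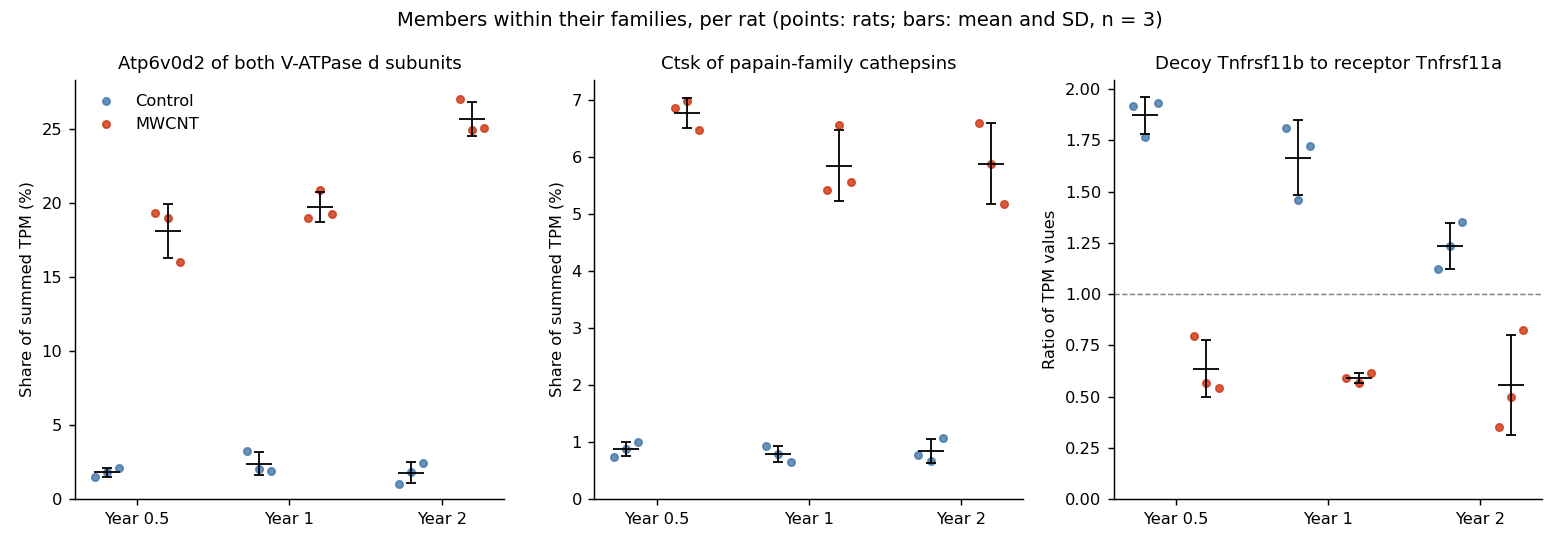
The 3 ratios within each rat (points) with the mean ± SD of 3 rats, Control in blue and MWCNT in red, at each year (x axis): Atp6v0d2 as a percent of the TPM of both d subunits, Ctsk as a percent of the TPM of papain-family cathepsins, and the Tnfrsf11b to Tnfrsf11a TPM ratio with a dashed line at 1. The first rises from about 2% to between 18.1% and 25.7%, the second from under 1% to between 5.84% and 6.77%, and the third stands on opposite sides of the line.

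Nfatc1 (ENSRNOG00000017146, chr18:77203525-77322690, minus strand), the transcription factor of the program, was well expressed and showed no fitted change past the test. Control rats had 24.9, 23.6 and 31.9 TPM at Year 0.5, 25.6, 33.3 and 27.6 at Year 1, and 22.9, 24.6 and 26.1 at Year 2. MWCNT rats had 27.8, 25.3 and 24.4 TPM, then 23.4, 19.9 and 22.9, then 21.1, 21.6 and 22.3. At Year 1 and Year 2 every MWCNT rat was below every Control rat in TPM, but so were 46.8% and 45.7% of all tested genes on that scale, and on the CPM scale adjusted by the trimmed mean of M-values (TMM) the groups overlapped at all 3 times. Its fitted value on the log2 scale was 0.09 ± 0.11 (SE, FDR = 0.551) at Year 0.5, -0.15 ± 0.10 (FDR = 0.237) at Year 1 and 0.04 ± 0.07 (FDR = 0.640) at Year 2. Its sign at Year 0.5 and Year 2 turned when libraries were scaled by total count alone.

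None of the 4 other NFAT genes was called at any time. Nfatc3 stood at -0.20, -0.33 and -0.25 on the log2 scale in the order of the years (FDR = 0.0226, 0.0091 and 0.0126), within the fold limit. Its mean was 36.8 TPM in Control and 29.1 TPM in MWCNT at Year 0.5, and 31.2 and 22.7 TPM at Year 2.

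Dcstamp (ENSRNOG00000004704, chr7:78649875-78650906, plus strand) encodes a membrane protein needed for precursor fusion, and its counts were low, between 2 and 40 a rat, over a row that spans only 1032 bases in the tables. Control rats had 17, 5 and 4 counts at Year 0.5, 9, 5 and 16 at Year 1, and 7, 4 and 2 at Year 2. MWCNT rats had 18, 19 and 12 counts, then 32, 40 and 12, then 18, 28 and 17. The groups overlapped at Year 0.5 and Year 1 and were apart at Year 2. The log2 fold change was 0.82 ± 0.504 (SE, FDR = 0.230), then 1.55 ± 0.51 (FDR = 0.0364), then 2.23 ± 0.49 (FDR = 0.00454), so that the gene was called at Year 1 and Year 2. The Year 1 call was lost in 4 of the 6 fits that left out 1 rat, and the gene was called at Year 0.5 without Control rat 1 (log2 fold change 1.65, FDR = 0.0438).

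Ocstamp (ENSRNOG00000019110, chr3:162075340-162080192, minus strand), the related membrane protein that acts with DC-STAMP, was also rare. Control rats stood at 1.37, 2.43 and 1.34 TPM at Year 0.5, at 2.15, 1.86 and 2.63 at Year 1, and at 2.62, 2.57 and 1.81 at Year 2. MWCNT rats stood at 3.72, 3.43 and 3.78 TPM, then at 3.06, 3.94 and 3.53, then at 5.14, 5.55 and 5.23. No MWCNT rat overlapped a Control rat of its time, and the 3 MWCNT rats of Year 2 were the highest of all 18. Its log2 fold change was 1.24 ± 0.28 (SE, FDR = 0.00802) at Year 0.5, 0.90 ± 0.24 (FDR = 0.0152, short of the fold limit) at Year 1 and 1.39 ± 0.23 (FDR = 0.000916) at Year 2.

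Oscar (ENSRNOG00000055716, chr1:64182422-64188658, plus strand), which binds collagen and signals through the adaptor Fcer1g, was the costimulatory receptor of the group. Control rats had 5.51, 6.04 and 4.66 TPM at Year 0.5, 6.12, 4.76 and 8.13 at Year 1, and 5.55, 7.01 and 8.59 at Year 2. MWCNT rats had 11.8, 12.9 and 12.02 TPM, then 12.9, 11.3 and 11.0, then 14.4, 15.5 and 13.9. The lowest MWCNT rat, at 11.0 TPM, was above the highest Control rat of any time, at 8.59 TPM. Its log2 fold change was 1.32 ± 0.15 (SE, FDR = 0.000225), 1.11 ± 0.19 (FDR = 0.00193) and 1.27 ± 0.16 (FDR = 0.000164), and at Year 1 it fell to 0.94 without Control rat 2.

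Acp5 (ENSRNOG00000046261, chr8:23142734-23148396, minus strand), the acid phosphatase used to stain osteoclasts and also present in lung macrophages, was the most abundant of the 10 genes in Control lungs. Control rats had 52.1, 55.5 and 62.8 TPM at Year 0.5, 58.6, 57.4 and 56.1 at Year 1, and 44.4, 59.3 and 57.2 at Year 2. MWCNT rats had 159, 167 and 142 TPM, then 139, 162 and 140, then 163, 132 and 143. All 9 MWCNT rats were above all 9 Control rats, and the ranges of the 3 times overlapped within each treatment. Log2 fold changes were 1.60 ± 0.09 (SE, FDR = 9.77e-06), 1.60 ± 0.10 (FDR = 1.06e-05) and 1.66 ± 0.12 (FDR = 6.01e-06).

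Ctsk (ENSRNOG00000021155, chr2:196655469-196666446, plus strand), the collagen-cleaving protease of osteoclasts, passed Acp5 in every MWCNT rat. Control rats stood at 16.4, 19.7 and 24.1 TPM at Year 0.5, at 22.02, 19.2 and 15.2 at Year 1, and at 15.9, 13.5 and 25.1 at Year 2. MWCNT rats stood at 366, 420 and 326 TPM, then at 315, 427 and 321, then at 497, 380 and 342. The lowest MWCNT rat, at 315 TPM, was far above the highest Control rat, at 25.1 TPM. On the log2 scale the change was 4.36 ± 0.15 (SE, FDR = 1.41e-06), 4.49 ± 0.20 (FDR = 2.21e-06) and 4.71 ± 0.24 (FDR = 1.18e-06). Ordered by mean TPM among the 22081 genes, Ctsk stood at place 7449, 7788 and 7853 in Control and at place 339, 352 and 297 in MWCNT.

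Some other papain-family cathepsins, the cysteine proteases of the lysosome, were also called higher, and Ctsk took a larger share of the family in MWCNT. It made up 0.873% ± 0.127, 0.789% ± 0.137 and 0.834% ± 0.210 of the summed TPM of the family in Control (SD, n = 3 each), and 6.77% ± 0.26, 5.84% ± 0.63 and 5.88% ± 0.71 in MWCNT. Of the 8 other cathepsins tested, 4 were called higher at Year 0.5, 4 at Year 1 and 5 at Year 2. Ctsz, a carboxypeptidase, had log2 fold changes of 1.73, 1.93 and 2.06, Ctss, which trims the invariant chain of MHC class II, of 1.67, 1.68 and 2.06, and Ctsh, an aminopeptidase that also processes surfactant protein, of 1.59, 1.72 and 1.98. Ctsw, a cathepsin of cytotoxic lymphocytes, was the only gene of all the pathway lists called lower, at Year 2, where it went from 20.3 TPM in Control to 6.65 TPM in MWCNT and fell by 1.39 on the log2 scale (FDR = 3.42e-05). Markers of T cells moved the same way at that time, 5 of the 7 called lower (Cd3e, Cd3d, Cd3g, Cd8a and Cd28) and Cd4, which rat macrophages also express, called higher, and their part in the Ctsw value was not tested.

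Atp6v0d2 (ENSRNOG00000006926, chr5:33843519-33892462, minus strand) encodes the d2 isoform of the stalk subunit between the membrane part and the cytosolic part of the proton pump, and it is also required for fusion of osteoclast precursors. Control rats had 2.59, 3.20 and 3.59 TPM at Year 0.5, 5.59, 3.37 and 3.08 at Year 1, and 1.66, 3.15 and 3.89 at Year 2. MWCNT rats had 50.1, 50.3 and 39.1 TPM, then 48.3, 56.9 and 50.2, then 77.8, 69.6 and 70.7. All MWCNT rats were well above all Control rats, and the 3 MWCNT rats of Year 2 were above the 6 earlier ones. On the log2 scale the change was 4.05 ± 0.17 (SE, FDR = 2.76e-06), 3.95 ± 0.21 (FDR = 3.98e-06) and 4.87 ± 0.19 (FDR = 3.34e-07).

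The widely expressed isoform Atp6v0d1 had smaller values, with log2 fold changes of 0.45, 0.60 and 0.59, and was not called. Of the TPM of both d isoforms, d2 made up 1.80% ± 0.30, 2.38% ± 0.77 and 1.75% ± 0.71 in Control (SD, n = 3 each), and 18.1% ± 1.8, 19.7% ± 1.0 and 25.7% ± 1.2 in MWCNT. Of the 17 tested genes for other subunits and accessory proteins of the pump, with Atp6v0d1 counted among them, 1 was called higher at Year 0.5, 1 at Year 1 and 4 at Year 2, with medians of 0.46, 0.65 and 0.76 on the log2 scale beside values near 0 over all tested genes. Atp6v1b2, the B subunit of most cells, had log2 fold changes of 1.46, 1.53 and 1.92 and was called each time, while the catalytic subunit Atp6v1a (0.88, 0.95 and 1.39) and the accessory protein Atp6ap2 (0.82, 0.77 and 1.28) were called at Year 2. The kidney form Atp6v1b1 had at most 18 counts in any rat and was not tested.

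Across time, no gene of the 10 was called within Control or within MWCNT in any of the 6 comparisons of 2 years, in a model of all 18 rats. DESeq2 also called 0 in each. Of all genes, 0%, 0.633% and 0.499% were called in the Control comparisons of Year 1 with 0.5, 2 with 0.5 and 2 with 1, and 0.0472%, 2.34% and 0.903% in the MWCNT ones. Between 0 and 2 of the 9 genes had an unadjusted p under 0.05 in a comparison. Atp6v0d2 was higher in MWCNT at Year 2 than at Year 0.5 by 0.73 ± 0.17 on the log2 scale (SE, FDR = 0.00787), short of the fold limit. In that comparison 13.5% of all genes had an FDR under 0.05. Its difference between Year 2 and Year 1 was 0.50 ± 0.17 (FDR = 0.0847). Neighboring means of the other genes within a treatment did not differ past the test. Some lay apart in TPM without overlap all the same. The MWCNT rats of Year 2 lay above those of both earlier times in Ocstamp (log2 difference from Year 0.5 of 0.63, FDR = 0.0697) and Oscar (0.34, FDR = 0.182), and below those of Year 0.5 in Nfatc1 (-0.17, FDR = 0.297), as those of Year 1 did (-0.16, FDR = 0.631). In Tnfrsf11b the Control rats of Year 0.5 lay above those of Year 1 (log2 difference of Year 1 from Year 0.5 of -0.27, FDR = 0.830) and of Year 2 (-0.42, FDR = 0.167).

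Whether the effect of MWCNT itself changed between years was tested as an interaction, and 0 of the 9 genes passed. The lowest FDR was 0.244, in Atp6v0d2, which was also the 1 gene with an unadjusted p under 0.05. DESeq2 called 0 as well, and edgeR called 0.667% of all genes. For Atp6v0d2 the effect at Year 2 exceeded that at Year 1 by 0.94 ± 0.33 on the log2 scale (SE, FDR = 0.165), a contrast in which 0.478% of all genes passed. A difference between times was thus not shown for Dcstamp, Ocstamp and Tnfrsf11a, each of which was called at some times and missed at another.

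The genes around these 10 were taken as 8 lists by role, 132 genes of which 127 were listed in the tables. Of the 120, 122 and 122 tested, 22, 27 and 34 were called higher and 0, 0 and 1 lower at Years 0.5, 1 and 2. The shares of all tested genes called higher, to be set beside each list below, were 6.07%, 6.13% and 8.17%. The medians of all these genes were 0.39, 0.42 and 0.54 on the log2 scale, against -0.02, 0.00 and -0.01 over all tested genes.

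**Figure D4:**
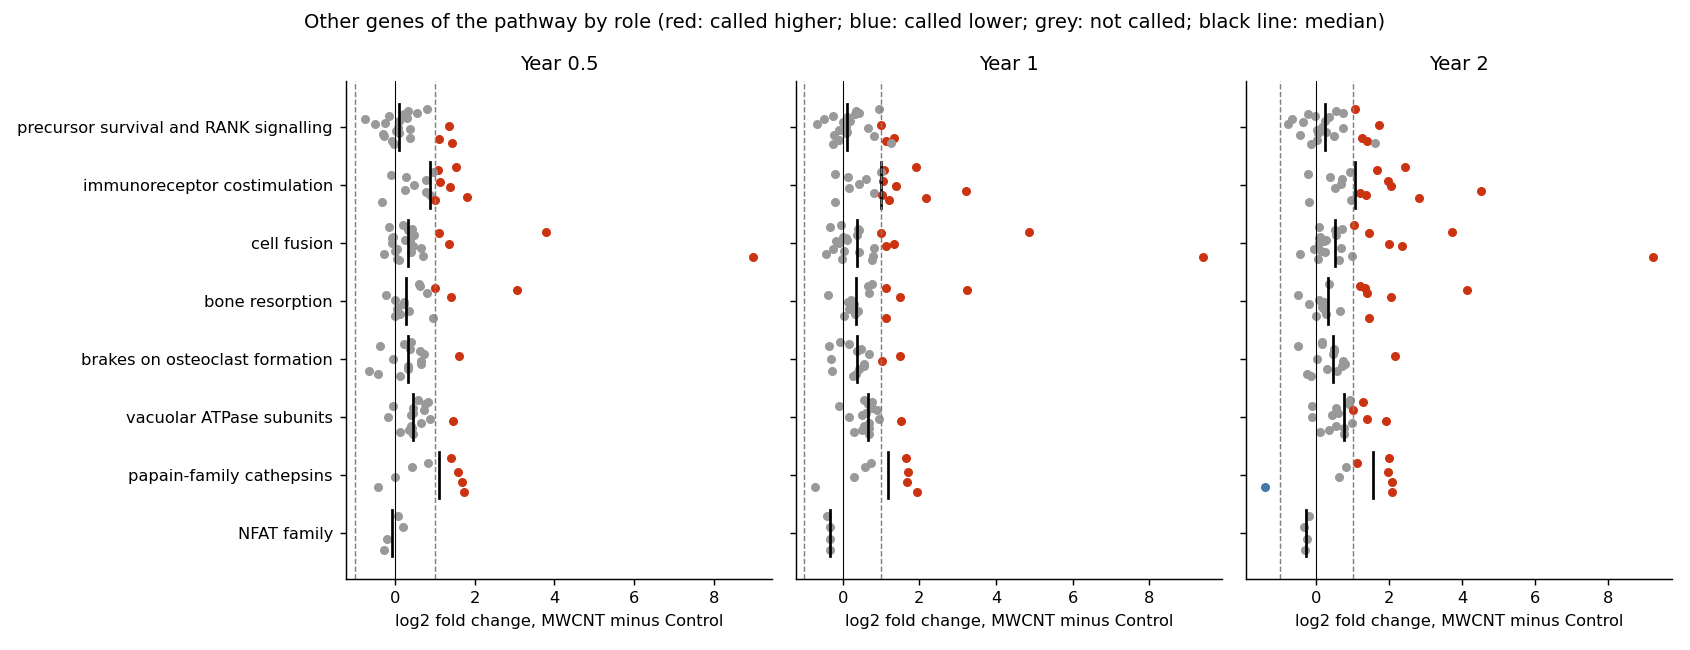
Fitted log2 fold change, MWCNT minus Control (x axis), of each tested gene of the 8 role lists (y axis) at each year (panels), in red where called higher, blue where called lower and grey where not called, with a black line at the median of each list. Costimulation genes and cathepsins have the highest medians, and the 4 NFAT genes lie around or below 0.

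Of the precursor and RANK signaling genes, 3 of 22 were called higher at Year 0.5, 3 of 23 at Year 1 and 4 of 23 at Year 2. The 3 called each time were transcription factors of the lineage. Mitf, which acts with PU.1 on the Acp5 and Ctsk genes, had log2 fold changes of 1.36, 1.00 and 1.73, its relative Tfec 1.45, 1.12 and 1.39, and Spi1 1.11, 1.33 and 1.26. Csf1, the growth factor of the lineage, reached the fold limit at Year 2 (1.06, FDR = 0.000109), while its receptor Csf1r had 0.34, 0.34 and 0.55. Traf6, the adaptor directly below RANK, had -0.02, -0.26 and -0.14 (FDR between 0.0698 and 0.925), and the AP-1 gene Fos 0.56, 0.41 and 0.74, none of them called. The AP-1 genes Jun, Junb and Jund were not called either. Jun had -0.75, -0.49 and -0.65 (FDR = 0.00428, 0.00672 and 0.000978), and by FDR alone 18.6%, 19.6% and 24% of all tested genes were lower. Junb had 0.11, 0.19 and 0.25, and Jund -0.26, 0.00 and -0.37.

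Immunoreceptor genes that work beside Oscar were called higher in 6 of 15, 8 of 16 and 8 of 16 cases, with list medians of 0.88, 1.01 and 1.07 on the log2 scale. Trem2, a lipid-sensing receptor of macrophages, had log2 fold changes of 1.82, 2.18 and 2.81, and the adaptor Blnk 1.53, 1.90 and 2.44. Siglec15, a receptor of osteoclast precursors, had 0 to 4 counts in Control rats and reached 10, 14 and 33 in MWCNT rats. It was not tested at Year 0.5 for low counts and had log2 fold changes of 3.22 ± 0.84 (SE, FDR = 0.0147) at Year 1 and 4.52 ± 0.71 (FDR = 0.000752) at Year 2. Of the adaptors, Tyrobp had 1.01, 1.20 and 0.96 and was called at the first 2 times, and Fcer1g, the partner of Oscar, had 0.96, 1.00 and 0.94, just short of the fold limit each time.

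Of 23 other genes of cell fusion, 4, 5 and 6 were called higher. Spp1, the matrix and cytokine protein osteopontin, had the largest change of any list, from 3.11 to 1417 TPM at Year 0.5, with log2 fold changes of 8.97, 9.40 and 9.23. Ccl2, a monocyte attractant that promotes fusion, had 3.80, 4.86 and 3.72, and the leukocyte integrin Itgb2 1.36, 1.33 and 2.01. Cd44, the hyaluronan receptor, was called each time (1.11, 1.01 and 1.44), whereas Cd9, Cd47, Sirpa and Adam8, surface proteins of fusing macrophages, were called at none. Sirpa (0.71, 0.80 and 0.97) and Cd47 (0.48, 0.36 and 0.54) had an FDR under 0.05 each time, short of the fold limit. By FDR alone, 38.8%, 41.2% and 49.2% of all tested genes passed in either direction. Cd9 had -0.07, 0.08 and 0.08, and Adam8 -0.16, -0.33 and 0.07.

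Among 16 genes of resorption, 3, 4 and 6 were called higher. Gpnmb, a glycoprotein of osteoclasts and lipid-laden macrophages, had log2 fold changes of 3.06, 3.23 and 4.13, and the membrane protease Mmp14 1.41, 1.49 and 2.04. Tcirg1, the a3 subunit that places the pump in the ruffled border, had 0.96, 1.14 and 1.46 and was called at Year 1 and Year 2. The chloride exchanger Clcn7, which balances the charge of pumped protons, was called at Year 2 (1.21), but its partner Ostm1 had 0.00, 0.21 and 0.07, and carbonic anhydrase 2 (Car2), the proton source, 0.60, 0.76 and 0.35. Of the genes that restrain osteoclast formation, Nfkbie, an inhibitor of NF-kappaB, was called higher at Year 1 (1.04).

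The 4 markers set aside for osteoclasts themselves were mixed, with 0 of 2, 2 of 3 and 2 of 3 tested called higher at Years 0.5, 1 and 2. Siglec15, also on the costimulation list, was called at Year 1 (3.22, FDR = 0.0147) and Year 2 (4.52, FDR = 0.000752). The calcitonin receptor Calcr had at most 11 counts in any rat and was not tested. Integrin beta 3 (Itgb3), part of the adhesion receptor of osteoclasts and also of platelets, had log2 fold changes of -0.22, -0.38 and -0.50 (FDR = 0.0567, 0.0168 and 0.0047). It was thus lower by FDR at Year 1 and Year 2, by less than the fold limit. By FDR alone, 19.6% and 24% of all tested genes were lower at these times. Mmp9, also on the fusion list, was called at Year 1 (1.12) and Year 2 (2.35), when its mean went from 4.37 to 19.2 TPM. Of bone-forming cells, the defining genes Bglap, Sp7, Dmp1 and Sost had at most 4, 2, 15 and 19 counts in any rat, and of the 4 tested markers of the list 0 were called higher at any time, and Phex was called lower at Year 1 and Year 2. Lung identity was checked on 6 epithelial markers (Sftpc, Sftpb, Sftpa1, Ager, Hopx and Scgb1a1), whose summed TPM was between 48165 and 74102 in every rat. Sftpa1 was called higher each time and Sftpc at Year 2, and 0 were called lower. Hopx (-0.49, -0.44 and -0.89) and Scgb1a1 (-0.87, -0.91 and -0.80) were lower by FDR each time, and Ager at Years 0.5 and 2, within the fold limit. By FDR alone, 18.6%, 19.6% and 24% of all tested genes were lower.

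Most macrophage markers were higher in MWCNT rats as well. Of the 9, 6 were called higher at Year 0.5, 5 at Year 1 and 7 at Year 2, with Cd163 called lower at Year 1 and Csf1r called at no time, and none was at 0 in a whole group. Their summed TPM was between 307 and 393 in Control rats and between 766 and 1111 in MWCNT rats. Taken per summed macrophage marker TPM, Ctsk was at 6.07% ± 1.01, 4.87% ± 0.86 and 5.47% ± 1.40 in Control (SD, n = 3 each) and at 45.1% ± 2.5, 40.6% ± 4.1 and 38.0% ± 6.0 in MWCNT. Atp6v0d2 likewise was at 0.945%, 1.04% and 0.869% in Control and at 5.66%, 5.97% and 6.83% in MWCNT, with no overlap of rats in either gene. Acp5 was at 17.2%, 14.8% and 16.3% in Control and at 19.0%, 16.9% and 13.7% in MWCNT, and Oscar at 1.64%, 1.64% and 2.13% against 1.49%, 1.36% and 1.37%. Tnfrsf11a was at 3.67%, 2.96% and 4.15% against 2.80%, 2.50% and 2.17%. Ocstamp was at 0.516%, 0.573% and 0.722% in Control and at 0.447%, 0.404% and 0.499% in MWCNT, and Dcstamp at 0.332%, 0.317% and 0.180% against 0.215%, 0.352% and 0.225%. The rats of both groups overlapped at each time in Dcstamp, while in Ocstamp the MWCNT rats lay below the Control rats at Year 1 and overlapped them at the other times. In Tnfrsf11a the MWCNT rats lay below the Control rats at Years 0.5 and 2, and in Oscar at Year 2. In Acp5 they lay above them at Year 1. At the remaining times the rats of both groups overlapped in these 3 genes. The part of macrophage abundance in the change was not tested for any of these genes, Ctsk and Atp6v0d2 included. Of 4 neutrophil markers, 1 was called higher at Year 0.5 and 2 at each later time (S100a9 each time, S100a8 at the later ones), while Csf3r and Cxcr2 were called at none. Their summed TPM was between 206 and 365 in Control and between 360 and 1130 in MWCNT. Heart muscle genes were called lower in 5 of 5 at Year 0.5, in 1 of 5 at Year 1 and in 1 of the 4 tested at Year 2, with summed TPM between 67.8 and 557 in Control and between 14.1 and 168 in MWCNT, which overlapped at the later times. The part of either in these results was not tested.

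The genes whose levels followed each member most closely over the 18 rats were sought among 14842 others by Pearson's r of log2 CPM. These rats share the split by treatment, so that any gene changed by MWCNT scores high, and the values are a description. Acp5 was closest to Ctsk (0.992), Tuba1c and Vim, and Ctsk to Spp1 (0.996), Mmp12 and Npc2. Atp6v0d2 was closest to the macrophage marker Cd68 (0.996), the pump subunit Atp6v1b2 and Sgpl1. Oscar followed Clec4e (0.977), Sh3bp2 and Lilrb4, Tnfrsf11a followed Ccl7 (0.977) and Slc37a2, and Ocstamp followed Myo1f (0.962), Abracl and Trh. The other genes had weaker partners, Ube2d2 for Dcstamp (0.893), Adra1a for Tnfrsf11b (0.875) and Nup98 for Nfatc1 (0.844). After the mean of each group was taken away, so that treatment and time no longer counted, Ctsk was closest to Gpnmb (0.906), Clcn4 and Hexa, and Tnfrsf11b to Chodl (0.919), Lin54 and Adra1a (0.887). For the other members the highest value lay between 0.832 (Eif2b5 for Dcstamp) and 0.903 (Letm1 for Nfatc1). Each is the largest among 14842 genes, and a value of this size was not particular to Ctsk or Tnfrsf11b.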

How the data were processed

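Lungs of 18 rats were sequenced as total RNA, 3 per group. The authors mapped the reads with CLC Genomics Workbench 22.0.2, and the submitters' processing notes name Rnor_6.0 and rn6. The deposited count of reads per gene is a whole number without normalization, and the deposited TPM was made by the authors' software. Reads shared between similar genes and strand handling are not given in the sources used here. The authors' comparison columns (fold changes and p-values) and their CPM and RPKM columns were not used. Total counts per rat were between 13297643 and 21130757.

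From the counts, genes were filtered with filterByExpr (count minimum 10, total 15), scaled by TMM and tested with edgeR 4.0.16 (quasi-likelihood, R 4.3.3) in the 6 rats of each year, or in all 18 rats for time and interaction. FDR is by Benjamini-Hochberg over all tested genes. The code was tested on simulated data. DESeq2 1.42.0, limma 3.58.1, other scalings, filters and thresholds, and fits without each rat were alternatives.

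The members, role lists, markers and motifs were chosen with earlier results of these data known. All members are named, with the 3 called genes of each role list whose mean change was largest and the 3 genes most like each member. Fcer1g, Tyrobp, Traf6, Fos, Jun, Junb, Jund, Csf1, Csf1r, Cd44, Cd9, Cd47, Sirpa, Adam8, Clcn7, Ostm1, Car2, Atp6v0d1, Atp6v1b1, Ctsw, Nfatc3 and the single markers were named for their role after their values were seen. For Dcstamp, Tnfrsf11a, Tnfrsf11b and Nfatc1 fewer partners are printed, and some items that these rules name are not reported here. Of the lists, Sirpb1, Cd36, Ccr2, Il4ra, Ctso, Col1a2, Pecam1 and Foxj1 were not analysed here.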

Additional observations from a re-analysis of the deposited data

How the results depend on the processing

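Over the other settings tried, 370 values of single members kept their direction and their side of the threshold, 19 fell under it, 5 passed it and 8 turned sign, while 275 counts stayed within 1.5 times and 8 did not. With limma on log2(TPM + 1) or log2(TPM + 0.1), 3 members were called at Year 1 instead of 6, and 16 pathway genes instead of 27. By FDR alone, pathway genes called were 79, 82 and 87 at Years 0.5, 1 and 2 instead of 22, 27 and 35. Of all tested genes, 38.8%, 41.2% and 49.2% passed by FDR alone in either direction, against 9.1%, 10.2% and 16.4% with the fold limit. Also by FDR alone, 1 member (Atp6v0d2) differed between Years 2 and 0.5 in MWCNT. Leaving out 1 rat gave 6 to 7, 4 to 7 and 6 to 7 members, and 19 to 25, 21 to 29 and 33 to 37 pathway genes. Scaling by library size alone moved the median log2 fold change of all genes by -0.104, -0.134 and -0.171, and 5, 5 and 6 members were then called. Nfatc1 turned to -0.01281 at Year 0.5 and -0.1305 at Year 2 with that scaling, to -0.04132 and -0.1672 with limma at a pseudocount of 1, to -0.0424 and -0.1736 at 0.1, and to -0.01275 at Year 2 with upper quartile scaling. The cause was not tested.

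Tnfrsf11b at Year 2 ran from -0.4741 to 0.01617 when 1 rat was left out, the latter without MWCNT rat 1. The Dcstamp call at Year 1 was lost without Control rat 1 (FDR = 0.0786), Control rat 2 (0.12), MWCNT rat 1 (0.0909) or MWCNT rat 2 (0.13), and in limma. Leaving out 1 rat also brought Ocstamp at Year 1 past the fold limit (1.04 without Control rat 3, 1.005 without MWCNT rat 1), and Tnfrsf11a at Year 2 (1.06 without rat 3 of either group).

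Rats with the same number are different animals. Over 9 pairs their deviations correlated at 0.00685 on average, against -0.00319 for unlike numbers. With a replicate block, 6, 5 and 6 members were called, Dcstamp at Year 1 being the one lost (1.472, FDR = 0.0729), and no other call of a member changed.

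The 3 rats per group limit the precision of each value, and Tnfsf11 and Dcstamp are limited by depth.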
